A study of Saccharomyces cerevisiae with 18 samples.

Results

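RNA that came down with basket-containing nuclear pore complexes of budding yeast was compared with RNA from a background purification on the same matrix. The 6 libraries were taken by their titles, 3 of the basket-containing pores and 3 of the background control labelled PrA, out of 18 libraries in the series. Both groups are strain W303, grown in YPD as asynchronous cultures in log phase, frozen, ground in liquid nitrogen and purified on IgG. RNA was extracted with Trizol and selected for poly(A). The protein tagged to catch the pores, the mating type, and what the control cells carried beyond the label PrA are unknown from the labels. The 3 input libraries, from the same strain and culture conditions, are set beside these groups as levels only, with no test.

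Nuclear pore complexes are the channels through which messenger RNA leaves the nucleus. The basket is a filamentous structure on their nuclear face, built mainly of Mlp1 and Mlp2 with Nup1, Nup2 and Nup60, and it takes part in the surveillance of mRNA before export. In budding yeast the pores next to the nucleolus lack a basket.

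The pore libraries held 11488480 to 15243460 counts and the control libraries 12135737 to 16620246. The variance between replicates of the pores was 1.8 to 5.37 times that of counting alone (chi-square per degree of freedom). Between replicates 1 and 2 of the control it was 3.17 times. Replicate 3 of the control stood apart from its partners, at 18.92 and 20.59. On the log2 scale of CPM (library-size-scaled counts, adjusted by TMM), a principal component with 97.9% of the variance separated the groups. Protein was not measured, so these RNA data do not check which pores were caught. Nothing in the labels says that replicates came from separate cultures, so p-values reflect the spread of these 6 libraries, which could be technical only. All values are relative to the rest of a library, and in bulk extracts more cells with a transcript and more transcript per cell cannot be told apart.

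Most of the transcriptome differed between the pores and the control. Of 6357 features tested, 2775 (43.7%) were higher in the pores and 2868 (45.1%) lower, at an adjusted p below 0.05 (edgeR quasi-likelihood test with Benjamini-Hochberg adjustment over all features, n = 3 per group). Below, log2 fold changes are given ± SE and mean CPM ± SD. Changes of more than 2-fold were found in 1609 rises (25.3% of features tested) and 1800 falls (28.3%), and changes of more than 4-fold in 625 rises (9.83%) and 622 falls (9.78%). The 3 pore libraries all lay above the 3 control libraries in 2799 features (44.0%) and all below in 2907 (45.7%). Without replicate 3 of the control, 2797 features were higher and 2926 lower. With upper-quartile factors in place of TMM factors, 2237 were higher and 3447 lower, so that 39.4% of the calls were rises against 49.2%. That scaling moved the median log2 fold change of all features by -0.36, and positive values smaller than this can change sign under it. Since 88.8% of all features passed the test, a call on its own sets no gene apart. Gene lists are given below by their counts, to be read against the 43.7% higher and 45.1% lower over all features. Their medians are to be read against the median of all features, -0.05.

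**Figure D1:**
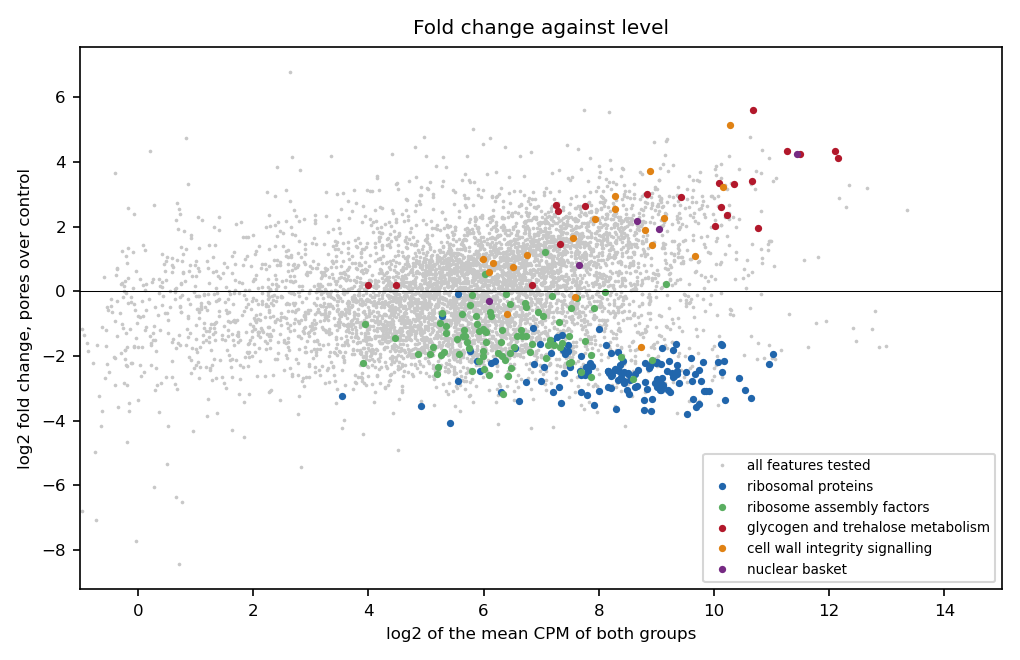
Log2 fold change of each feature tested (pores over PrA control, vertical axis) against the log2 of its mean CPM in both groups (horizontal axis), with 5 groups of lists coloured. Glycogen and trehalose genes reach 5.62, while ribosomal protein genes lie between -4.08 and -0.09.

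The make-up of the libraries differed between the purifications. Ribosomal protein mRNAs took 1.72%, 1.69% and 1.63% of counts in the pores and 12.04%, 11.8% and 12.8% in the control, beside 14.5%, 14.7% and 15.1% in input. The highest pore library lay far below the lowest control library. Coding genes of 3000 bases or more went the other way, with 20.6%, 20.8% and 21.5% in the pores against 8.81%, 9.05% and 8.49% in the control. The 14 glycogen genes alone took 2.87 ± 0.025% (SD) of pore counts against 0.275 ± 0.0080% in the control and 0.537 ± 0.0053% in input. Glycolysis and fermentation genes took 4.74 ± 0.14% in the pores against 9.01 ± 0.51% in the control, and elongation and termination factors 0.338 ± 0.0052% against 1.25 ± 0.054%. The groups did not overlap in any of these shares, and the two-sided exact permutation test gave p = 0.1 for each, the smallest value that 3 libraries against 3 allow. The 100 most abundant features held 26.9 ± 0.28% of counts in the pores and 25.8 ± 1.1% in the control, where the groups overlapped (exact permutation p = 0.3). In the pores 402 ± 6 features made up 50 percent of the counts, against 450 ± 28.6 in the control.

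**Figure D2:**
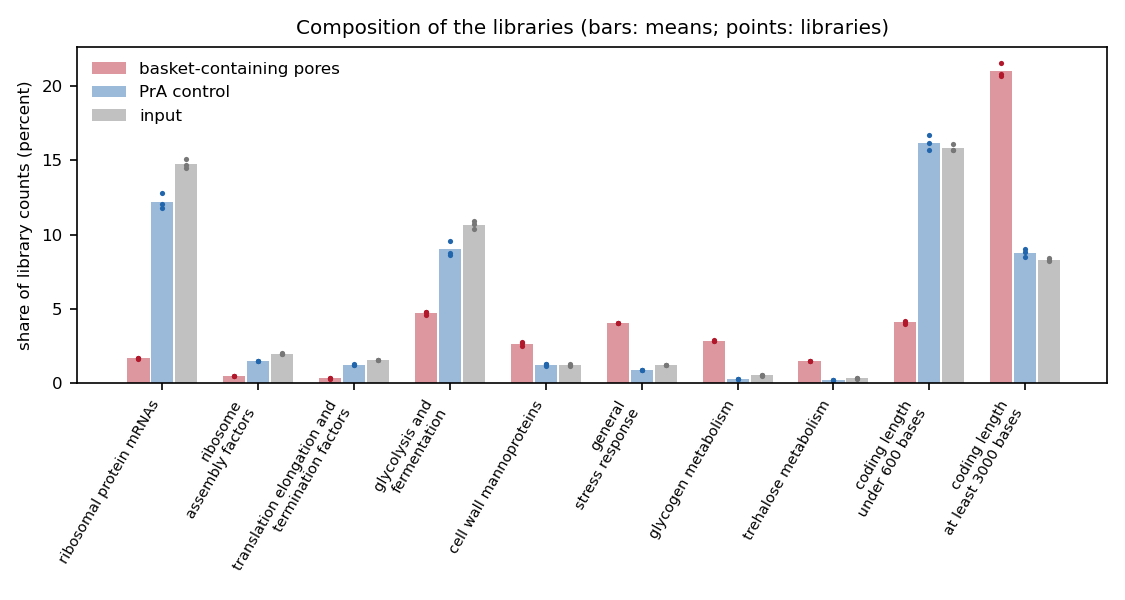
Share of library counts in percent (vertical axis) taken by 8 gene lists and by short and long coding genes, with bars for the mean of 3 libraries and points for each library. Ribosomal protein mRNAs take 12.2% in the control and 1.68% in the pores, and genes of at least 3000 bases 8.78% and 21.0%.

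The mRNAs that encode the basket itself were measured at different levels. MLP1, for the main filament protein, stood at 5074, 5364 and 5359 CPM in the pores, 274, 285 and 264 CPM in the control and 120.4, 117 and 119.7 CPM in input. The 3 purified pore libraries were far above the others, and the control was itself above input. The log2 fold change of MLP1 over the control was 4.26 ± 0.06 (SE, edgeR quasi-likelihood adjusted p = 3.11e-13). MLP1 lies on chromosome XI at 619805 to 625432 of the R64 build, on the plus strand. Its direct neighbours RPL40B (-2.53) and PCC1 (-1.87) fell, and beyond them PTR2 (1.47) and ESL2 (2.06) rose. NUP1 and MLP2 rose by 2.19 ± 0.06 and 1.92 ± 0.07, and NUP2 by 0.81 ± 0.05. NUP60, for the protein that anchors the filaments, fell from 75.9 ± 7.13 to 61.4 ± 0.937 CPM (SD), a log2 fold change of -0.31 ± 0.08. The median of the 5 was 1.92, and 0.54 after the median of genes of like coding length was subtracted.

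Among the 28 nucleoporin genes outside the basket, 21 were higher, 6 were lower and NUP85 (-0.13 ± 0.06) did not pass. The list's median of 0.77 was 0.16 below that of genes of like length. The largest rises were in the FG-repeat nucleoporin NUP116 (2.14 ± 0.06), ASM4 (2.05 ± 0.08), NUP170 (1.98 ± 0.07), and NUP159 (1.59 ± 0.06) of the cytoplasmic filaments. Members of the Y complex, the outer ring of the pore scaffold, divided: NUP84 (1.35 ± 0.09), NUP133 (1.22 ± 0.06), NUP145 (1.21 ± 0.06) and NUP120 (0.96 ± 0.07) rose, while SEC13 (-0.50 ± 0.05) and SEH1 (-1.13 ± 0.07) fell. Elsewhere the short genes DYN2 and GLE2 fell, with DYN2 at -1.39 ± 0.11 and GLE2 at -0.76 ± 0.08. The membrane nucleoporins POM152 (0.66 ± 0.07), POM34 (-0.38 ± 0.11) and NDC1 (-0.83 ± 0.08) went in different directions. NIC96 and GLE1 rose by 0.29 ± 0.07 and 0.19 ± 0.06 but were at -0.06 and -0.16 with upper-quartile factors, and NUP192 (0.50 ± 0.07) lost its call under that scaling. NUP85 was called lower under 6 alternatives, among them upper-quartile factors at -0.48 and the fit without replicate 3 of the control at -0.14.

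Transport factors divided likewise, in shares near those of all features tested (43.7% higher and 45.1% lower). Of 15 karyopherins, the carriers that take proteins through the pore, 7 were higher and 8 lower, with a median of -0.25 that was 1.29 below genes of like length. KAP95, importin beta, rose by 1.82 ± 0.05 and the export receptor CRM1 by 1.69 ± 0.06, whereas KAP123, an importer of ribosomal proteins, fell from 134 ± 8.39 to 49.04 ± 0.226 CPM (-1.45 ± 0.06). Of 23 genes of mRNA export and mRNP proteins, 11 were higher and 9 lower, and their median of 0.07 turned to -0.29 with upper-quartile factors. The export receptor MEX67 (1.55 ± 0.06), the poly(A) binding protein NAB2 (1.68 ± 0.06), the shuttling protein NPL3 (1.73 ± 0.06) and the THO subunit THO2 (2.17 ± 0.07, which overlaps another gene) rose. The cytoplasmic poly(A) binding protein PAB1 fell by 1.37 on the log2 scale and the small TREX-2 subunit SEM1 by 1.73.

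Glycogen genes had the highest median of the 46 lists. Glycogen is the branched glucose store that yeast builds as growth slows, and its synthesis is switched by protein phosphatase 1. GAC1, the phosphatase subunit that directs it to glycogen synthase, was at 3179, 3078 and 3314 CPM in the pores, 65.3, 72.1 and 56.4 CPM in the control and 189, 163 and 157 CPM in input. Every pore library was above every other library. Its log2 fold change was 5.62 ± 0.09, a 49.3-fold difference (edgeR quasi-likelihood adjusted p = 3.82e-13), the largest among coding genes with a standard symbol that met the rule for naming. The synthases GSY1 and GSY2 rose by 4.33 ± 0.07 and 3.42 ± 0.06, the branching enzyme GLC3 by 4.26 ± 0.06 and the glycogenin GLG1, which primes the chain, by 3.03 ± 0.05. The breakdown enzymes moved with them: glycogen phosphorylase GPH1 stood at 8264, 8326 and 8615 CPM against 394, 407 and 442 CPM (4.34 ± 0.07), and the debranching enzyme GDB1 rose by 3.32 ± 0.05. Genes of precursor supply rose too, with PGM2 at 3.37 ± 0.07 and UGP1 at 2.03 ± 0.06. Of the 14 members 12 were higher and 0 lower, with a median of 3.17, or 2.28 above genes of like length. GLG2 (0.18 ± 0.09) and PIG1 (0.18 ± 0.11), both at low levels, did not pass, and PGM1 at 0.21 ± 0.05 turned to -0.14 with upper-quartile factors.

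Trehalose genes rose as a whole list, 7 of 7, with a median of 2.60. This disaccharide protects yeast proteins and membranes under stress. The phosphatase TPS2 stood at 8543, 8619.8 and 8711 CPM in the pores and 485, 501 and 480.1 CPM in the control (4.14 ± 0.06). The regulatory subunits TPS3 (2.91 ± 0.06) and TSL1 (2.60 ± 0.06) and the synthase TPS1 (1.96 ± 0.07) were joined by the trehalases ATH1 (2.63 ± 0.06), NTH1 (2.36 ± 0.05) and NTH2 (1.46 ± 0.06). Genes of synthesis and of breakdown were thus both higher in the pores.

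The general stress list, 30 genes that many stresses induce in yeast, had 24 members higher, 3 lower and a median of 2.20, or 1.90 above genes of like length. It shares GLC3 and TPS2 with the lists above. CTT1, the cytosolic catalase, stood at 1084, 1099 and 1045 CPM in the pores, 58.8, 62.4 and 52.9 CPM in the control and 158, 148 and 149 CPM in input. MSC1 (3.79 ± 0.06), the aldehyde dehydrogenase ALD3 (3.51 ± 0.07) and the glycerol synthesis enzyme GPD1 (2.63 ± 0.06) rose as well, and the short gene HOR7 fell (-2.12 ± 0.10). SPG4, needed for survival in stationary phase, was at 43.4, 41.6 and 35.4 CPM against 1.10, 2.02 and 3.48 CPM, a rise from few counts (4.26 ± 0.24). Heat shock chaperones did not move as a list, with 13 higher, 18 lower and a median of -0.37. In it the disaggregase HSP104 stood at 11636, 11649.5 and 11673 CPM against 1191, 1185 and 1403 CPM (3.21 ± 0.08), and the Hsp110 protein SSE2 and the small heat shock protein HSP42 rose by 2.78 ± 0.05 and 2.49 ± 0.06. The ribosome-bound chaperones SSB1 (-2.38 ± 0.07) and SSB2 (-2.41 ± 0.07), near-identical copies whose reads may be shared, fell, and so did the mitochondrial HSP10 (-2.93 ± 0.09).

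**Figure D3:**
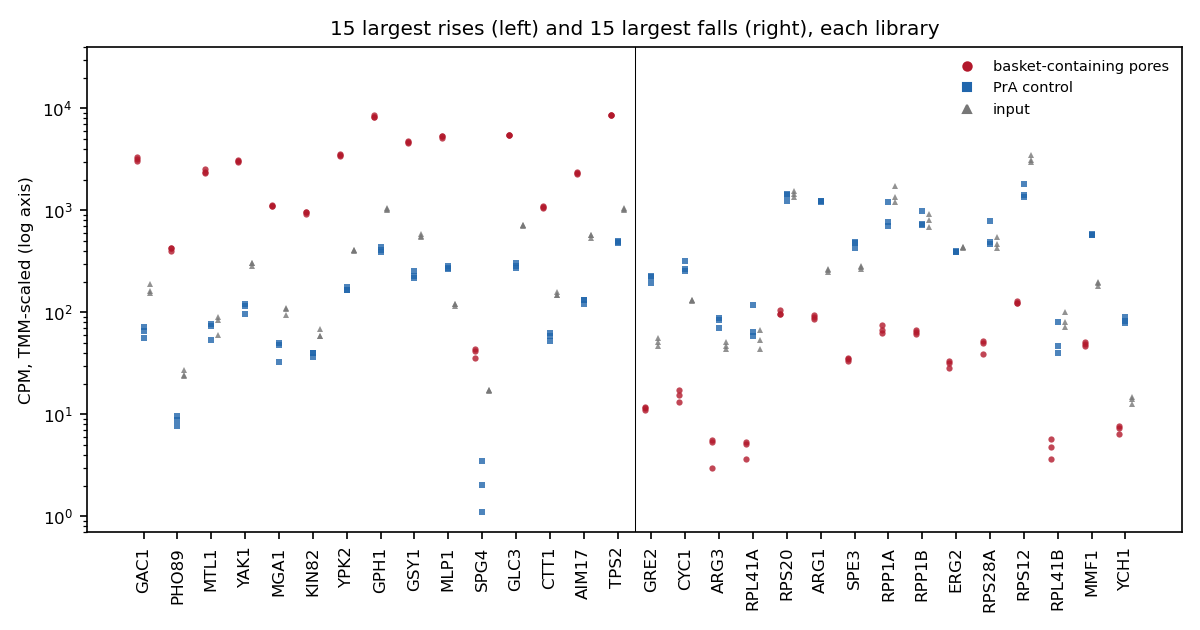
CPM of each library on a log axis for the 15 largest rises and the 15 largest falls among named genes, with pores, PrA control and input as separate symbols. GAC1 lies near 3190 CPM in the pores and 64.6 CPM in the control, and GRE2 near 11.5 and 215 CPM.

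Promoters of the stress genes were searched for AGGGG on either strand, the core of the stress response element bound by Msn2 and Msn4, from 250 bases before to 50 bases after the start of the coding sequence. The sequences of GLC3, CTT1 and TPS3 are shown because these genes rose together and hold matches, which are in capitals (CCCCT is the reverse complement). They were read from the RefSeq R64 genome, that of strain S288C rather than W303, 5′ to 3′ in the direction of the gene. The last match in GLC3 and the last in TPS3 lie after the start of the coding sequence. GLC3 lies at chrV:132870-133169 on the plus strand, CTT1 at chrVII:654384-654683 on the plus strand and TPS3 at chrXIII:793320-793619 on the minus strand.
GLC3: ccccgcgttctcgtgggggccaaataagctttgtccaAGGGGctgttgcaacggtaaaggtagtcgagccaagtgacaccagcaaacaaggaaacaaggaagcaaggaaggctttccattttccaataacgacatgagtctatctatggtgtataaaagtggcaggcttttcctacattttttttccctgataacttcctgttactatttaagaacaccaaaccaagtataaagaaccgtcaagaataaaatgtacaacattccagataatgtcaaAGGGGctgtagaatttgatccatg
CTT1: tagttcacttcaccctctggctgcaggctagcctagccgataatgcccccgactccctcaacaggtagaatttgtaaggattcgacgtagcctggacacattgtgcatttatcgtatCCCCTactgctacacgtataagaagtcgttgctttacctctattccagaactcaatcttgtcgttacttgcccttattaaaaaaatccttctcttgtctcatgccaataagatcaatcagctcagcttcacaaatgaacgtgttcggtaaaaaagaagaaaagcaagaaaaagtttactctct
TPS3: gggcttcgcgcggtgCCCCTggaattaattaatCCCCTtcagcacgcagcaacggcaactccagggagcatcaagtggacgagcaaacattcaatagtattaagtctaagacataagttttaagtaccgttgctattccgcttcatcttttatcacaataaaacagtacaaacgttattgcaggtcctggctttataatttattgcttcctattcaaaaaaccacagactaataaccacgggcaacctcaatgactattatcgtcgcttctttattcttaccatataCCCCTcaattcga
AGGGG occurred in 20 of 30 general stress promoters, 4 of 7 trehalose promoters and 5 of 14 glycogen promoters, against 1296 of 5988 coding promoters (21.6%). Among 533 coding genes called more than 4-fold higher the share was 36.0%, and 34.7% in the 505 of them outside the glycogen, trehalose and stress lists. Among 476 genes called more than 4-fold lower it was 16.8%. The windows of GAC1, GPH1, GSY1, TPS2 and ATH1 held 0 matches, and no test was made of these shares.

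Regulators of growth signalling were high in the pores. Of 33 genes in the Ras, protein kinase A and TOR pathways, which couple growth to nutrients, 27 were higher and 5 lower, with a median of 1.59 and 0.72 above genes of like length. YAK1, a kinase that opposes protein kinase A, stood at 3044, 3087 and 3011 CPM against 115, 120.0 and 96.2 CPM (4.78 ± 0.08). It overlaps another annotated gene, and strandedness is not given. The Ras GTPase activator IRA2, which lowers Ras activity, was at 3633, 3709.8 and 3907 CPM against 213, 237 and 196 CPM (4.12 ± 0.08). The pore libraries lay above all control libraries for both. RIM15, a kinase of entry into quiescence, rose by 3.13 ± 0.06, adenylate cyclase CYR1 by 2.67 ± 0.05 and the glucose receptor GPR1 by 2.66 ± 0.06. The protein kinase A catalytic subunit TPK3 fell (-1.44 ± 0.08).

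Several other large rises were kinases and transcription factors. KIN82 (4.62 ± 0.06) and FPK1 (3.93 ± 0.07) encode kinases that activate phospholipid flippases. YPK2, an AGC kinase downstream of TORC2, was at 3497, 3557 and 3443 CPM against 167.4, 175 and 166.6 CPM (4.36 ± 0.06). MGA1, a protein related to heat shock factor, was at 1121, 1115 and 1094 CPM against 47.7, 50.6 and 32.9 CPM (4.66 ± 0.13). None of the pore libraries came near the control in these genes. CAT8 (4.07 ± 0.07), an activator of gluconeogenic genes, rose together with its known target MDH2 (3.89 ± 0.06), cytosolic malate dehydrogenase. GIS1 (3.92 ± 0.11), which acts as glucose runs out, the nitrogen regulator GLN3 (3.80 ± 0.08), the glucose-responsive AZF1 (3.82 ± 0.10), the repressor RFX1 (3.75 ± 0.07) and the zinc cluster protein TBS1 (3.80 ± 0.07) were also among the 30 largest. JSN1, a Puf family RNA-binding protein, stood at 1966 ± 23.5 CPM against 134 ± 22.6 (3.88 ± 0.11), and ASK10, a regulator of the glycerol channel Fps1, at 2571 ± 40.9 CPM against 188 ± 24.2 (3.77 ± 0.09). AIM17 (4.18 ± 0.06), GID11 (3.82 ± 0.08), CSR2 (3.77 ± 0.06) and the signalling mucin HKR1 (3.95 ± 0.10) completed these 30 with genes named elsewhere in the text.

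The cell wall integrity pathway senses wall stress at the surface and signals through Rho1 and Pkc1 to the MAP kinase Slt2. Of its 19 genes 16 were higher and 3 lower, with a median of 1.42, or 0.50 above genes of like length. Among the sensors, MTL1 was at 2392, 2304 and 2564 CPM in the pores, 76.6, 74.4 and 53.5 CPM in the control and 89.3, 84.7 and 60.3 CPM in input (5.14 ± 0.12). The pore libraries alone were high, and control and input overlapped. MID2 (2.54 ± 0.06, overlapping another gene), WSC4 (1.13 ± 0.09) and WSC3 (0.89 ± 0.08) rose less, WSC2 fell (-0.69 ± 0.08), and SLG1 (-0.18 ± 0.06) lost its call without any of 4 of the 6 libraries in turn. The Rho1 exchange factors ROM1 (3.73 ± 0.07), TUS1 (2.95 ± 0.05) and ROM2 (2.27 ± 0.07) and the GTPase activators SAC7 (2.25 ± 0.06), BEM2 (1.10 ± 0.05) and LRG1 (1.01 ± 0.08) rose. RHO1 itself fell from 648 ± 60.2 to 198 ± 10.1 CPM (-1.71 ± 0.07). The kinase cascade followed in descending order of size of change with PKC1 (1.89 ± 0.05), BCK1 (1.64 ± 0.05), SLT2 (1.42 ± 0.05), MKK1 (0.77 ± 0.06) and MKK2 (0.60 ± 0.06). The transcription factor RLM1, a target of Slt2, stood at 2053, 2102 and 2025 CPM against 239, 248 and 164 CPM (3.24 ± 0.13).

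Genes that build the wall rose in part. Of 23 cell wall synthesis genes 15 were higher and 6 lower, with a median of 0.39. The chitin synthase CHS1 (3.51 ± 0.06) and the glucan synthase GSC2 (2.95 ± 0.05) rose more than CHS3 (1.80 ± 0.06) and FKS1 (1.30 ± 0.06), and the glucan-remodelling enzyme GAS1 fell (-1.23 ± 0.05). The 22 mannoprotein genes had 11 higher and 6 lower, and their median of 0.31 turned to -0.04 with upper-quartile factors. HSP150 rose from 1103 ± 46.2 to 8131 ± 382 CPM (2.88 ± 0.06), while CWP2 fell from 1552 ± 120.3 to 149 ± 5.19 CPM (-3.38 ± 0.07) and CCW12 from 3003 ± 56.3 to 724 ± 38.8 CPM (-2.05 ± 0.06).

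The most abundant mRNA per kilobase of coding length in the pores was SED1, for a stress-induced wall protein, with 17523 CPM per kilobase against 3073 in the control and 3498 in input. HSP150 (6547), the hexokinase HXK1 (6458), HSP104 (4273) and SPO24 (4054) came next. In the control the order was led by the glycolytic genes FBA1 (11534) and TDH3 (11512), then CCW12 (7471), GPM1 (6526) and ENO2 (6411). FBA1 and TDH3 stood at 3542 and 3474 CPM per kilobase in the pores. Glycolysis and fermentation genes as a list had 9 higher and 11 lower, median -0.32. HXK1 rose from 971 ± 27.04 to 9416 ± 350.3 CPM (3.28 ± 0.06), and so did glucokinase GLK1 (1.48 ± 0.06), phosphofructokinase PFK2 (1.42 ± 0.05) and the minor pyruvate kinase PYK2 (1.53 ± 0.05). The abundant enzymes TPI1 (-2.08 ± 0.12), GPM1 (-1.71 ± 0.06) and FBA1 (-1.70 ± 0.07) fell.

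Transport at the plasma membrane was covered by several lists. Of 19 ABC and cation transporter genes tested 17 were higher and 2 lower, with a median of 1.49, or 0.32 above genes of like length. The drug exporters PDR15 (3.11 ± 0.06), PDR5 (2.38 ± 0.05) and PDR10 (2.27 ± 0.07), the calcium channel CCH1 (2.29 ± 0.06) and the potassium transporter TRK1 (1.99 ± 0.05) rose, and the proton pump PMA1 fell (-0.69 ± 0.05). Among 17 hexose transporters and glucose sensors 13 were higher and 3 lower, with a median of 1.31. The glucose-signalling repressors MTH1 (3.58 ± 0.07) and RGT1 (2.74 ± 0.06), the sensor SNF3 (2.62 ± 0.06) and the high-affinity transporter HXT2 (2.96 ± 0.06) rose, whereas the low-affinity HXT1 fell (-1.35 ± 0.08). Amino acid transporters had 13 of 21 higher and 5 lower, with AGP2 at 2.88 ± 0.07.

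The phosphate regulon did not move together. PHO89, the sodium-phosphate cotransporter, stood at 431, 402 and 429 CPM in the pores, 7.73, 9.54 and 8.78 CPM in the control and 27.1, 24.4 and 23.6 CPM in input, a log2 fold change of 5.60 ± 0.08. The pore libraries were again the only high ones. Of the 22 genes of the regulon 7 were higher and 14 lower, with a median of -0.39. PHO2 (2.98 ± 0.09), the regulator PHO81 (1.33 ± 0.06) and the low-affinity transporter PHO87 (1.64 ± 0.06) rose, and the acid phosphatases PHO3 (-1.80 ± 0.06) and PHO12 (-1.93 ± 0.09) and PHM6 (-2.62 ± 0.14) fell. PHO12 may share reads with close copies.

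Ribosomal protein genes had the lowest medians of the 46 lists. Of 81 large-subunit ribosomal protein genes 0 were higher and 80 lower (median -2.54), and of 57 small-subunit genes 0 were higher and 57 lower (median -2.47). These mRNAs are short, and relative to genes of like length the medians were -1.35 and -1.42. RPS20 was at 105, 97.4 and 96.9 CPM in the pores, 1428, 1462 and 1232 CPM in the control and 1562, 1443 and 1363 CPM in input (-3.78 ± 0.08). The pores were low and the control overlapped input. RPL10 fell from 2906 ± 182.8 to 295 ± 15.6 CPM (-3.30 ± 0.07) and ASC1, the ribosome-bound scaffold, from 1449 ± 58.04 to 143 ± 5.91 CPM (-3.34 ± 0.06). The stalk proteins RPP1A (-3.71 ± 0.19), RPP1B (-3.67 ± 0.12) and RPP2B (-3.48 ± 0.16) were among the 30 largest falls. For RPP1A the control libraries held 778, 702 and 1205 CPM, so replicate 3 was the highest. RPS12, RPS27B, RPL38, RPS25A, RPS31, RPL43B and RPL21A fell by 3.34 to 3.59 on the log2 scale. RPL41A (-4.08 ± 0.31) and RPL41B (-3.56 ± 0.29) are near-identical copies, and RPS28A (-3.62 ± 0.20) has a near-identical partner, so their counts are uncertain. RPL15B, at 45.01, 50.2 and 41.6 CPM against 49.3, 43.9 and 52.9 CPM, was the only ribosomal protein gene that did not pass (-0.09 ± 0.09, edgeR adjusted p = 0.352). It passed with upper-quartile factors at -0.45.

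Genes that make ribosomes were low as well, with a median coding length of 1527 bases. Of 86 assembly factors 79 were lower and 3 higher, with a median of -1.52, or 1.67 below genes of like length. SNU13, of the box C/D and U3 particles, was at 17.05, 13.8 and 17.8 CPM against 157, 141 and 139.8 CPM (-3.16 ± 0.09). NOP1, the nucleolar methyltransferase fibrillarin, was at 111, 99.5 and 95.5 CPM against 667, 669 and 670.2 CPM (-2.71 ± 0.06). The box H/ACA proteins NHP2 (-2.64 ± 0.07), GAR1 (-2.50 ± 0.05) and CBF5 (-2.13 ± 0.06) and the large-subunit factor TIF6 (-2.04 ± 0.06) fell, and the largest rise in the list was UTP22 (1.21 ± 0.06). Small nucleolar RNAs, the guides of these particles, were lower in 57 of 58 tested (median -2.61). They hold 0.0093 ± 0.00032% of pore counts and 0.061 ± 0.0059% of control counts in these poly(A)-selected libraries.

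The promoters of SNU13 and NOP1 are shown because assembly factor genes fell together and share motifs. Capitals mark GATGAG (the PAC core, CTCATC on the other strand) and AAAAATTTT (the RRPE core, AAAATTTTT on the other strand), in the same window, genome and orientation as above. The run AAAAATTTTT holds overlapping matches on both strands. SNU13 lies at chrV:101693-101992 and NOP1 at chrIV:427114-427413, both on the plus strand.
SNU13: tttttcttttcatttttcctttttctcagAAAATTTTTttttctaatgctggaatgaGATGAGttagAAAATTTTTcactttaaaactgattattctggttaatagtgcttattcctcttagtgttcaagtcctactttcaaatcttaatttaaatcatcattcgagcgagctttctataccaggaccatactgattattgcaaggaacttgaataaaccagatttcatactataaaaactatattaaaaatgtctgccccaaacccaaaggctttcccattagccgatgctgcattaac
NOP1: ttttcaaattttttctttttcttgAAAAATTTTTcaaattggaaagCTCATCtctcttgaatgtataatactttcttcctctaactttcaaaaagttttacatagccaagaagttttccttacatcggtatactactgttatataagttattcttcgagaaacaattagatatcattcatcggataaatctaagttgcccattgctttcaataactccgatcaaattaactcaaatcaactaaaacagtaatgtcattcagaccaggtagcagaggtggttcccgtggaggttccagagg
GATGAG occurred in 79 of 86 assembly factor promoters (91.9%), against 20.4% of 5988 coding promoters, and AAAAATTTT in 61 of 86 (70.9%) against 6.98%. Among genes called more than 4-fold lower, ribosomal proteins and assembly factors left out, GATGAG was in 25.7% of 343 promoters and AAAAATTTT in 14.6%. Among those more than 4-fold higher the shares were 13.9% and 2.63% of 533. Ribosomal protein promoters held GATGAG in 10.9%. These matches describe letters in a window and are not evidence of binding.

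Translation genes fell broadly. Elongation and termination factors were lower in 11 of 12 (median -1.77), with EFB1 (-2.37 ± 0.06) and the near-identical pairs TEF1 (-2.47 ± 0.06) with TEF2 (-1.64 ± 0.05) and EFT1 (-2.24 ± 0.07) with EFT2 (-2.03 ± 0.07), and the release factor SUP35 was the 1 rise (0.96 ± 0.05). Aminoacyl-tRNA synthetases, long genes on the whole, were lower in 16 of 19 and higher in 3, with a median of -1.13, or 1.48 below genes of like length. THS1 fell from 742 ± 57.8 to 188 ± 3.79 CPM (-1.98 ± 0.06). Of 24 initiation factors 19 were lower and 4 higher. TIF11 fell from 381 ± 55.04 to 33.00 ± 1.15 CPM (-3.53 ± 0.10), as did the cap-binding CDC33 (-2.43 ± 0.05) and SUI3 (-2.47 ± 0.07) of eIF2, whereas TIF4632, a copy of the scaffold eIF4G, rose from 204 ± 6.69 to 1567 ± 51.6 CPM (2.94 ± 0.06).

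In other complexes not all subunits moved in the same direction, although most genes of RNA polymerases I and III fell. For these polymerases, 20 genes gave 17 lower and 2 higher (median -1.89). RPC31 was at -2.93 ± 0.09, RPA12 at -2.62 ± 0.10 and RPC19 at -2.49 ± 0.10. The large polymerase III subunit RET1 rose (1.89 ± 0.06), while the large polymerase I subunits RPA135 (-1.40 ± 0.06) and RPA190 (-0.43 ± 0.05) fell. In polymerase II the large catalytic subunits RPO21 (1.71 ± 0.06) and RPB2 (1.19 ± 0.06) rose, and the other 8 subunits tested fell, down to RPO26 (-2.31 ± 0.07). In the list of the RNA exosome and its helpers 4 of 18 were higher and 12 lower (median -0.96). The helicase SKI2 (2.01 ± 0.05) and SKI3 (1.63 ± 0.07) rose, while the core subunits RRP42 (-1.33 ± 0.07), SKI6 (-1.53 ± 0.07) and CSL4 (-1.55 ± 0.08) and the long helicase MTR4 (-1.85 ± 0.08) fell. Mediator had 15 of 25 higher and 7 lower, from SRB8 (2.86 ± 0.07) and SSN2 (2.46 ± 0.07) of the kinase module to SRB6 (-1.67 ± 0.09).

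Coding length, counted from annotated coding sequences without untranslated regions, went along with the change. The median log2 fold change was -1.45 in 234 genes under 300 bases, -0.74 in 868 genes of 600 to 899 bases, 0.08 in 709 genes of 1200 to 1499 bases and 1.39 in 348 genes of 3000 to 4499 bases. Of 1082 genes under 600 bases 141 were higher and 809 lower, and of 140 genes of at least 4500 bases 118 were higher and 15 lower. Across 5721 genes, which are not independent replicates, Spearman's rho was 0.57, and 0.55 without ribosomal protein genes. The control level had a rho of -0.097 with the fold change, and the control level per kilobase, which has length built in, one of -0.404. Both share the control libraries with the fold change. Exceptions at both ends, picked after their values were seen, were SPG4, MCO14 (3.57 ± 0.14), ROQ1 (3.07 ± 0.07), TMA10 (2.87 ± 0.07) and RGI1 (2.80 ± 0.06) among the short genes that rose. Among the long genes that fell were UTP10 (-0.77 ± 0.09) and URB1 (-0.37 ± 0.08) of ribosome assembly, RPA190 (-0.43 ± 0.05) of RNA polymerase I and the vacuolar transporter YCF1 (-0.44 ± 0.06). Whether length, or a feature that goes with it, has a part in the other results was not tested.

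**Figure D4:**
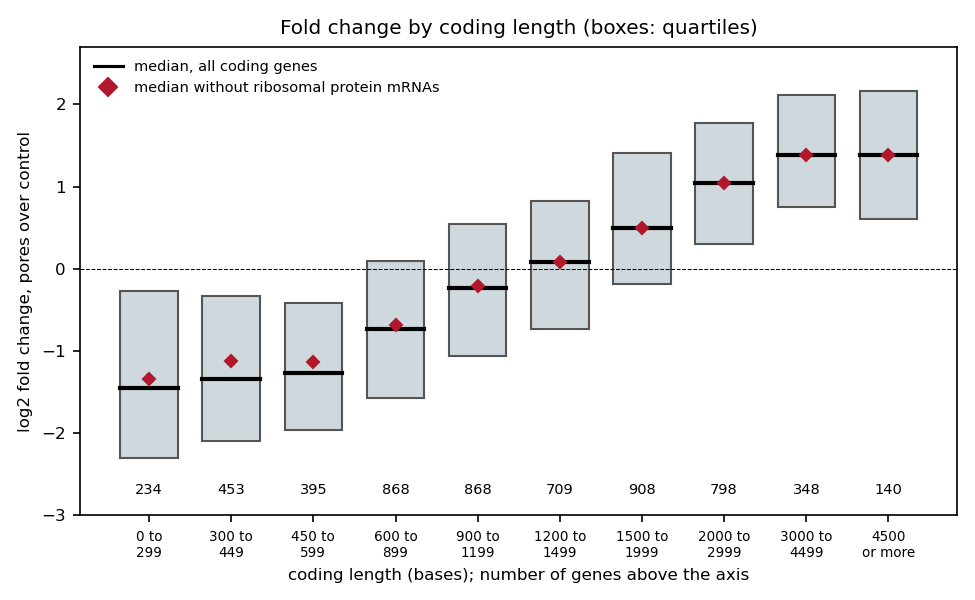
Log2 fold change (pores over PrA control) of coding genes in 10 bins of coding length in bases, with boxes for the quartiles, lines for the median and diamonds for the median without ribosomal protein genes. The median climbs from -1.45 to 1.39 and the number of genes per bin stands above the axis.

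The 30 largest falls also held genes outside the ribosome, several of which were higher in the control than in input. GRE2, a methylglyoxal reductase, was at 11.9, 11.04 and 11.7 CPM in the pores, 222, 229 and 194 CPM in the control and 51.8, 56.1 and 46.98 CPM in input (-4.22 ± 0.09, edgeR adjusted p = 1.02e-12). The control was highest and the pores lowest, with no overlap. ARG1, argininosuccinate synthase, was at 86.9, 91.01 and 94.8 CPM in the pores, 1223, 1228 and 1211 CPM in the control and 264, 261 and 248 CPM in input (-3.75 ± 0.06). CYC1, cytochrome c, was at 15.6, 17.4 and 13.3, 264, 254 and 320.3 and 130.2, 131 and 133 CPM in the same order (-4.18 ± 0.11). Both had the order of GRE2. MMF1 (48.9 ± 2.55, 575 ± 10.6 and 191 ± 7.81 CPM), YCH1 (7.14 ± 0.626, 83.8 ± 6.16 and 13.9 ± 1.13) and MHF1 (9.56 ± 0.325, 103 ± 11.5 and 18.7 ± 0.939) showed it too, in pores, control and input, as did ARG3 and SPE3, a polyamine synthesis enzyme. The redox genes GTT2 (33.5 ± 1.74, 325 ± 27.7 and 27.2 ± 2.64 CPM) and OYE3 (21.2 ± 1.13, 212 ± 4.65 and 39.7 ± 2.47 CPM) and the pseudogene AAD6 (37.04 ± 0.841, 666 ± 56.01 and 31.5 ± 1.77 CPM) were close to or nearer to input in the pores than in the control. ERG2 of sterol synthesis was at 31.5 ± 2.41, 394 ± 1.72 and 435 ± 6.88 CPM, where the control was near input, and FUR1, TMA19, FPR1, DMO2 and RMI1 were also among the 30 largest falls (-3.43 to -3.37).

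The lists behind these genes were mixed or low. Redox and detoxification genes gave 20 lower and 7 higher of 28 (median -1.29), with CTT1 the largest rise and thioredoxin TRX1 at -2.77 ± 0.08. Ergosterol synthesis genes gave 18 lower and 4 higher of 23 (median -1.22, or 1.11 below genes of like length), from ERG2 at -3.64 ± 0.07 to ERG9, squalene synthase, at 0.89 ± 0.05. Arginine genes were 5 higher and 8 lower, with arginase CAR1 at 2.18 ± 0.08 and ARG3 at -4.10 ± 0.16. Fatty acid and sphingolipid genes were 9 higher and 12 lower. In that list the long genes ACC1 (1.47 ± 0.05) and FAS1 (1.27 ± 0.05) rose and the elongase ELO3 fell (-2.86 ± 0.09).

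Mitochondrial lists were low by about as much as other short genes. Nuclear-encoded oxidative phosphorylation genes gave 30 lower and 6 higher of 38 (median -1.22, and -0.07 relative to genes of like length), with ATP7 at -2.08 ± 0.07 and COX5A at -1.68 ± 0.06 against the NADH dehydrogenase NDI1 at 2.29 ± 0.05. CYC7, the isoform of cytochrome c made at low oxygen, rose by 1.80 ± 0.06, opposite to CYC1. Mitochondrial ribosomal protein genes gave 52 lower and 11 higher of 67 (median -0.84, and -0.10 relative to genes of like length), with RSM27 at -2.99 ± 0.15 and RSM23 at 1.05 ± 0.07. The proteasome had 13 of 33 higher and 18 lower, its transcriptional activator RPN4 at 2.08 ± 0.06 and the core subunit PRE9 at -1.84 ± 0.07.

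Most chromatin remodelling and mRNA decay genes were higher. Of 38 genes of chromatin remodellers and SAGA 29 were higher and 4 lower, with a median of 1.43, or 0.60 above genes of like length. The ATPases INO80 (2.79 ± 0.06, overlapping another gene), SNF2 (2.53 ± 0.05) and SWR1 (2.21 ± 0.05) rose, as did RSC30 (2.92 ± 0.08), and the short SAGA subunit SGF11 fell (-1.82 ± 0.15). Of 20 mRNA decay genes 16 were higher and 4 lower, with a median of 1.06, or 0.25 above genes of like length. PUF3, which binds mRNAs of mitochondrial proteins, was at 792, 796 and 763 CPM against 64.3, 66.7 and 50.8 CPM (3.69 ± 0.09). The decapping helicase DHH1 (3.16 ± 0.08), the decapping enzyme DCP2 (2.76 ± 0.06) and the deadenylase CCR4 (1.55 ± 0.05) rose, and the CCR4-NOT subunit CDC36 fell (-1.81 ± 0.10). Of 39 splicing genes 27 were higher and 11 lower (median 0.45), with the branchpoint binder MSL5 (2.40 ± 0.06) and PRP8 (2.25 ± 0.05) highest and the Sm protein SMX3 (-1.79 ± 0.14) lowest.

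Polarity and motor genes rose about as much as other long genes. Of 30 polarity and bud neck genes 23 were higher and 6 lower (median 0.88, and -0.09 relative to genes of like length), with the formin BNI1 at 2.59 ± 0.06, the Cdc42 regulators RGA2 at 3.10 ± 0.08 and CDC24 at 2.36 ± 0.06, and CDC42 itself at -1.74 ± 0.08. Of 16 motor genes 14 were higher and 1 lower (median 1.16, and -0.01 relative to genes of like length). Histone genes had 3 of 10 higher and 6 lower, with HTB1 at 0.82 ± 0.05 and the variant HTZ1 at -1.71 ± 0.08, and cyclins with SIC1 had 8 of 15 higher and 5 lower, with a median of 0.20 that turned to -0.16 with upper-quartile factors. Of the genes with introns outside the cytosolic ribosome, a list added after the counts had been seen, 50 were higher and 98 lower (median -0.63, and 0.15 relative to genes of like length).

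**Figure D5:**
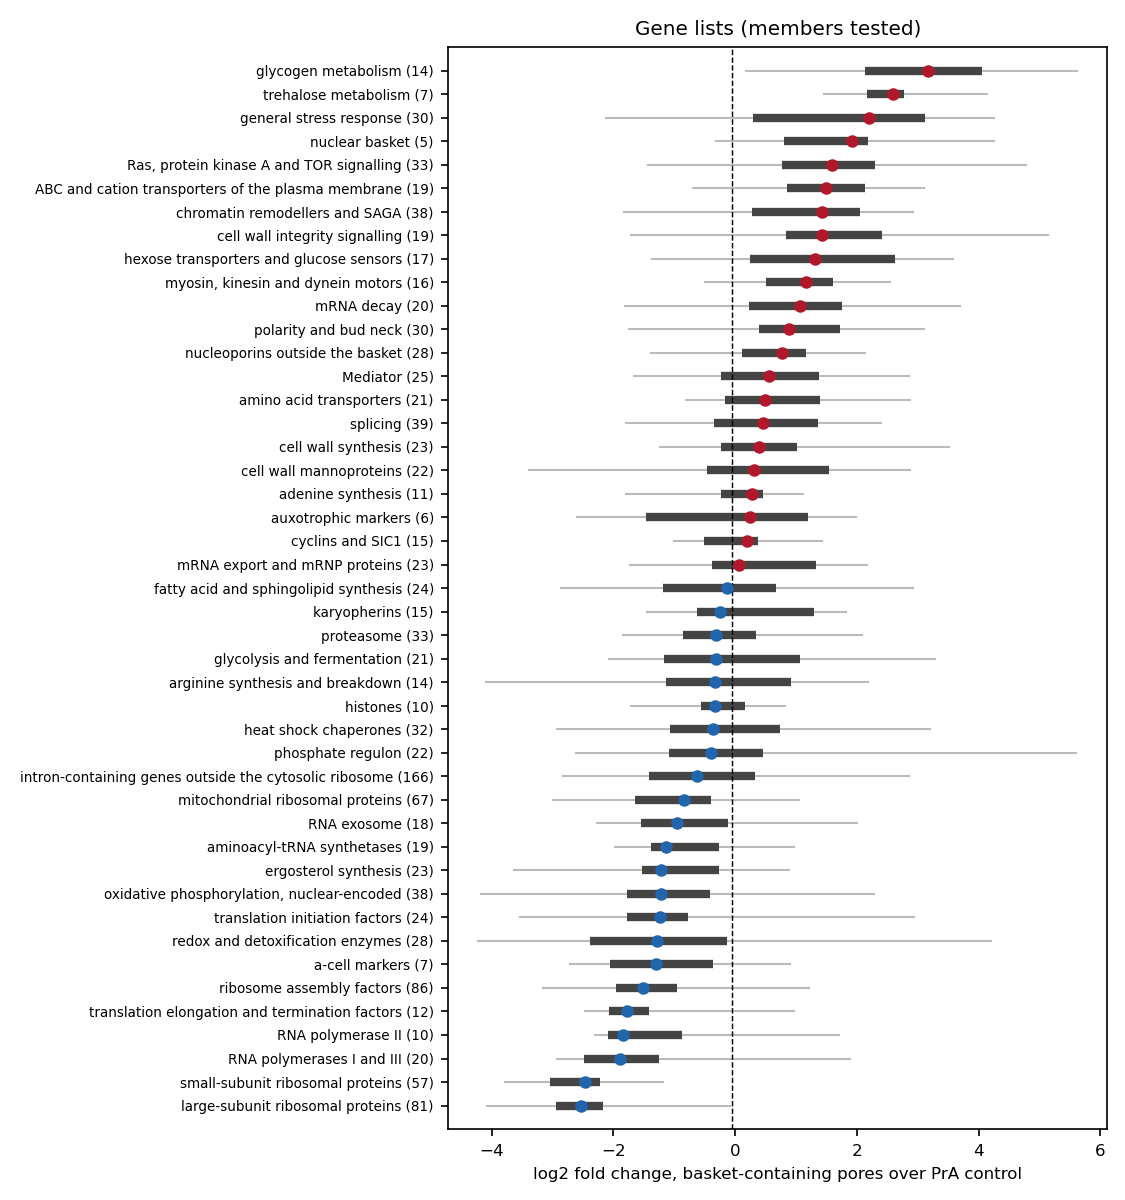
Log2 fold changes (pores over PrA control) of the gene lists, with the number of members tested in brackets, points for the median, thick bars for the quartiles and thin lines for the range. Alpha-cell markers, with 3 members tested, are not drawn. Glycogen metabolism has the highest median at 3.17 and large-subunit ribosomal proteins the lowest at -2.54, and the dashed line marks the median of all features at -0.05.

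Markers of mating type and strain were also read. Of the a-cell genes, the receptor STE2 was at 79.3 ± 9.51 CPM in the pores and 195 ± 29.6 in the control, with 387 ± 24.99 CPM in input, while the alpha-cell receptor STE3 was at 1.92 ± 1.42, 1.58 ± 0.444 and 4.77 ± 0.116 CPM. STE2 was thus above STE3 in each group. The 7 a-cell genes had 1 higher and 5 lower, and the pheromone genes MFA1 (-2.01 ± 0.13) and MFA2 (-2.08 ± 0.08) fell. Of 3 alpha-cell genes tested, SAG1 was higher (0.89 ± 0.13), MF(ALPHA)2 lower (-2.65 ± 0.19) and STE3 not called. The markers that are mutant in W303 differed between groups. URA3 was at 292, 299 and 274 CPM in the pores, 1744, 1693 and 1810.3 CPM in the control and 203, 211 and 225 CPM in input, and LEU2 at 1351, 1351 and 1287, 566, 553 and 581 and 159.8, 172.96 and 174 CPM. The control was the highest group for URA3 and the pores were the highest for LEU2. HIS3 was at 37.4 ± 3.98, 58.8 ± 9.71 and 15.1 ± 0.582 CPM. TRP1 fell (-1.75 ± 0.12), and ADE2 (1.12 ± 0.05) and CAN1 (1.98 ± 0.05) rose. The genotype of each group is not given, and the part of such markers in other results was not tested. The median of the 6 markers, 0.24, turned to -0.12 with upper-quartile factors, and that of 11 adenine synthesis genes, 0.27, to -0.09.

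Some abundant mRNAs had nearly equal TMM-scaled levels in both purifications, which are not equal shares of the library totals. The 10 coding genes of at least 200 CPM in both groups with the smallest change lay between -0.05 and 0.05 and were TUB3, PIC2, SEN1, ARG56, NEW1, RRP5, ALD6, TRP5, HSP60 and YGL114W. The mitochondrial chaperonin HSP60 was at 1093, 1108 and 1067 CPM in the pores and 1079.8, 1062 and 1242 CPM in the control (-0.05 ± 0.06, edgeR adjusted p = 0.466). The groups overlapped. RRP5, a 5190-base gene of ribosome assembly, was at 269, 264 and 291 CPM against 268, 270.5 and 299.9 CPM (-0.03 ± 0.06). The size of these differences depends on the scaling. Upper-quartile factors placed PIC2 at -0.34, ALD6 at -0.32, and TRP5 and YGL114W at -0.31, whereas DESeq2 size factors shifted features by a median of 0.032.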

How the data were processed

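Poly(A) RNA of 18 yeast libraries was sequenced. The comparison used 3 of basket-containing pores and 3 of the PrA control, with 3 of input as levels, and all 18 entered 1 alternative fit. The authors deposited raw counts per feature for each library, 7127 features, made with STAR and featureCounts on the R64 build per the submitters' processing notes, which also name DESeq2. Strandedness and the treatment of reads with several matches are unstated in those notes, the labels and the headers, so overlapping genes and near-identical copies are uncertain. Of the features, 6047 matched the R64 annotation by locus name. Overlap was marked only among these matched features. Overlap with unmatched features, among them 674 unannotated open reading frames, was not looked for, so an unmarked gene can still overlap a counted feature. Totals of the pore, control and input libraries are 11171677 to 16620246 counts.

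From the deposited counts, edgeR 4.0.16 in R 4.3.3 (filterByExpr, TMM, glmQLFit with robust=TRUE, glmQLFTest, two-sided) compared the groups over the 6 libraries, with Benjamini-Hochberg adjustment and calls below 0.05. The SE was taken as |log2 fold change| divided by the root of F. CPM are TMM-scaled, and input was put on the same scale. For a list, the value relative to genes of like length is the median of its members' log2 fold changes after the median of each member's bin of coding length (10 bins) was subtracted. The fit was tested on simulated data in which few features differed, equally in both directions. That setting does not check scaling or calls where most features differ, as here.

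The compared groups, the 46 gene lists and the tests were chosen with earlier results of these data known, and no list was tested as a set. Named genes are the 30 largest rises and 30 largest falls among called coding genes that have a standard symbol, reach 20 CPM in the higher group and do not overlap between groups. Added to them were up to 6 members of each list by smallest adjusted p with the extremes, all members of 6 lists, the 10 most abundant genes per kilobase in each group, and the 10 smallest changes at 200 CPM or more. The list of genes with introns and the genes at the ends of the length range were added after values were seen. Same-numbered replicates did not deviate together (correlations of -0.077, -0.079 and -0.189 over 6001 genes), so the numbers do not pair the libraries.

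Alternatives were DESeq2 size factors, upper-quartile factors, dropping the filter, requiring a mean count of 50, restricting features to nuclear open reading frames, all 18 libraries, a replicate block, leaving out each library, glmTreat at a log2 fold change of 1 and the Wald test of DESeq2 1.42.0.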

Additional observations from a re-analysis of the deposited data

How the results depend on the processing

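The counts of 2775 features higher and 2868 lower were within 1.5 times under every alternative except glmTreat against a log2 fold change of 1, which tests a stricter question and gave 1466 and 1557. The counts of higher and lower features were 2237 and 3447 with upper-quartile factors, 2821 and 2818 with DESeq2 size factors, 2782 and 2767 with the DESeq2 Wald test, 2813 and 2991 over all 18 libraries and 2769 and 2954 without a filter. Leaving out each library gave 2714 to 2797 higher and 2797 to 2926 lower. The replicate block gave 2752 and 2837, although the numbers do not pair the libraries and no library correlates best with that of its own number. Spearman's rho between coding length and log2 fold change was 0.55 without ribosomal protein genes, against 0.57.

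Medians of the 46 lists and of the shortest and longest bins of coding length gave 476 values under alternatives. Of these, 398 moved by less than the spread between replicates, 68 moved by more and 10 changed sign. With upper-quartile factors the sign turned for mRNA export (-0.29), mannoproteins (-0.04), adenine synthesis (-0.09), cyclins (-0.16), alpha-cell markers (-0.03) and auxotrophic markers (-0.12). The mRNA export median was also -0.01 without pore replicate 3 and -0.04 without control replicate 2 (range -0.04 to 0.15 with 1 library left out), and the alpha-cell median -0.09 over 18 libraries and -0.46 without pore replicate 1 (range -0.46 to 0.69). Among named genes 5675 of 5758 values kept the call and, where called, the direction, while 59 lost the call and 17 gained it. Most lost calls came from glmTreat, which tests a stricter question. The others were NUP192 and ADE16 with upper-quartile factors, and SLG1 without single libraries and in the DESeq2 Wald test. Direction was not compared where neither fit made a call. A further 7 values reversed, all under upper-quartile factors: PIC2 (-0.34), ALD6 (-0.32), TRP5 (-0.31), YGL114W (-0.31), NIC96 (-0.06), GLE1 (-0.16) and PGM1 (-0.14). That scaling shifts all features by -0.356. The pore minus control differences in shares of counts kept their sign for ribosomal protein mRNAs, long genes and the 100 most abundant features. For ribosomal protein mRNAs the difference of -10.53 percentage points was -11.22 over nuclear protein-coding features. For the 100 most abundant features the difference of 1.03 percentage points was 1.67 without control replicate 3 and 1.80 over nuclear protein-coding features. With 3 libraries a group the permutation test of a share cannot go below p = 0.1, and replicate 3 of the control varies more than depth alone gives.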
